A study of Mus musculus with 9 samples.

Results

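Retinas of P21 (postnatal day 21) mice that lack the TET enzymes in retinal cells, called Tet tcKO, were compared with Cre negative (Cre−) control retinas by bulk RNA-sequencing. The comparison uses 6 of the 9 libraries of the experiment, 3 of each genotype, and covers the 21330 genes, of 55487 counted, that reached at least 0.5 CPM (reads of a gene scaled to a fixed library total) in at least 3 of the 9 libraries. The libraries were chosen by their genotype labels. The 3 remaining libraries come from triple heterozygous retinas (tHet) and were used for the estimate of the spread and for values given side by side. Each library was made from the pooled retinas of 2 animals of strain C57 BL/6J.

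Tet tcKO animals carried floxed Tet1, Tet2 and Tet3 on both chromosomes, with the Chx10-Cre-GFP transgene, which is active in retinal progenitor cells. The tHet animals had a floxed and an intact copy of each of these genes, with the same transgene. The Cre− animals, whose genotype the labels give as WT, carried no Cre. Because the transgene is mosaic, Cre+ animals were mated with each other so that tHet and Tet tcKO animals held 2 copies of it, whereas Cre− animals were bred from Cre− parents. Genotype, Cre dose and breeding line therefore cannot be told apart in a comparison with Cre−.

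TET enzymes oxidise 5-methylcytosine in DNA, which is a step towards removal of the methyl mark. The retina arises from a common pool of progenitors that give rise to ganglion cells, horizontal cells, amacrine cells, cones, rods, bipolar cells and Müller glia. Rods are the most numerous cells of the mouse retina and signal to rod bipolar cells, while cones signal to several types of cone bipolar cell. In bulk tissue, fewer cells of a type and less RNA per cell cannot be told apart, and a level given as CPM is a share of all reads, so that a fall of abundant transcripts raises the share of others.

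The libraries held between 14813873 and 16987479 reads on genes in Cre− and between 15176156 and 16840792 in Tet tcKO. A ribosomal RNA gene, CT010467.1, took 28.7% of the reads of Tet tcKO replicate 3 and at most 0.0809% in the other 5 libraries compared. Mitochondrial genes took 8.53% to 16.8% of the reads in the 6 libraries. Of the targeted genes, Tet3 was at 213, 268 and 223 CPM in Cre− replicates 1, 2 and 3 and at 108, 152 and 99.2 CPM in Tet tcKO, below every Cre− library. Its log2 fold change (log2FC) of −0.99 had an adjusted p of 0.017 (limma) and was not called. Tet1 and Tet2 overlapped between the genotypes, with log2FC of 0.22 and 0.25. These levels count whole transcripts, including the exons that remain after recombination.

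Differences were tested by limma on log2(CPM + 0.5). Genes were called at an absolute log2FC of at least 1 and a Benjamini-Hochberg adjusted p under 0.01. Of all tested genes, 434 (2.03%) were called higher and 334 (1.57%) lower in Tet tcKO. The median log2FC of all tested genes was 0.00. Every Tet tcKO library lay above every Cre− library for 10.0% of the tested genes, and below for 9.60%. A fit with the replicate number as a block called 613 genes higher and 514 lower. The balance of the calls depended on single libraries. With CT010467.1 left out of the library totals, 613 genes were higher and 222 lower, and the median of all genes shifted to 0.14. With Tet tcKO replicate 3 left out, the numbers were 331 and 99. Without Tet tcKO replicate 2 the balance turned, with 305 higher and 457 lower, and without Cre− replicate 1 it was 380 and 389. The other libraries whose absence moved a count by more than 1.5 times were Tet tcKO replicate 1, with 212 and 148 calls, and Cre− replicate 3, with 250 and 172.

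The transcriptome was read through 33 lists of genes for retinal cell types and cell programs, which hold 468 different genes, of which 442 were tested. The plot of the lists gives their medians and the counts of called members. The lists for rod phototransduction, for rod bipolar cells, and for glycolysis had the lowest medians among lists with called members, and cone phototransduction and retinal progenitors the highest. The ganglion cell, GABAergic amacrine, starburst amacrine, pericyte, interferon, p53 and lens crystallin lists had no called member in the limma fit over 9 libraries. Some alternative fits called members in some of these lists.

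**Figure D1:**
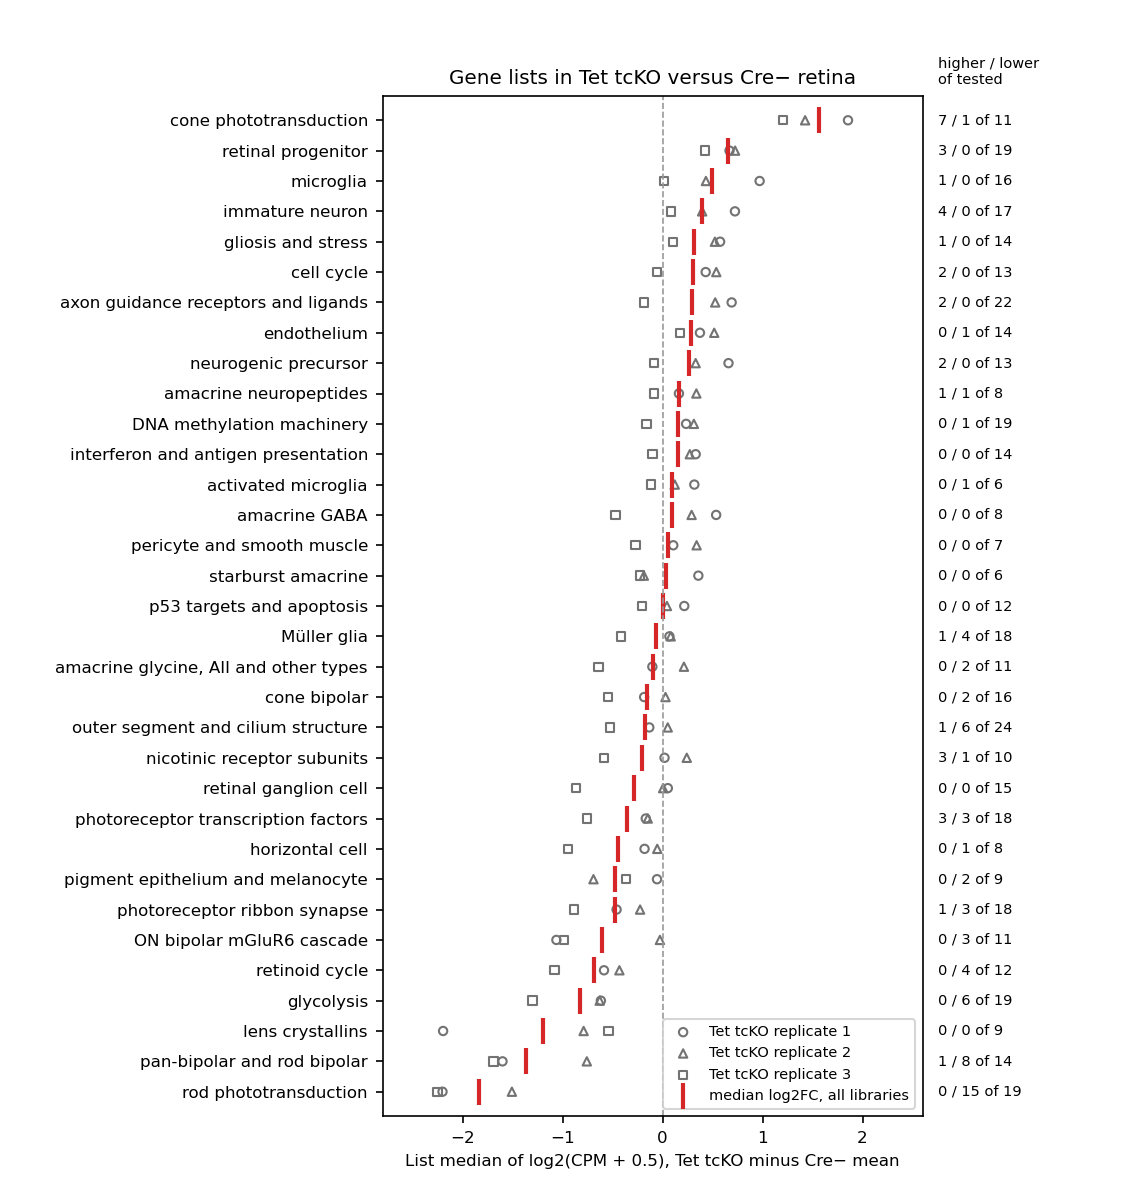
Median difference in log2(CPM + 0.5) between Tet tcKO and the Cre− mean for each gene list (x axis), with the red bar for the log2FC over all libraries, open symbols for each Tet tcKO library and the dashed line for the median of all tested genes. The numbers at the right are members called higher and lower out of those tested. The median of Tet tcKO replicate 3 is the lowest of the 3 libraries in 30 of the 33 lists. CT010467.1 took 28.7% of the reads of this library, which lowers the CPM of all its other genes, and the medians are not rescaled for it.

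Both photoreceptor cascades are given first as a frame for the other programs. Of 19 rod phototransduction genes, 15 were called lower and 0 higher (median log2FC −1.84), and of 11 cone genes, 7 were called higher and 1 lower (median 1.56). Cngb3, the beta subunit of the cone cyclic nucleotide-gated channel, was at 60.5, 77.1 and 75.0 CPM in Cre− and at 1110.0, 948 and 671 CPM in Tet tcKO. Its log2FC of 3.65 (standard error, SE, 0.23, limma adjusted p = 2.3e-09) was the largest of the cone list. The exception in the cone list was Pde6h, an inhibitory subunit of the cone phosphodiesterase. It was at 69.3, 97.2 and 81.2 CPM in Cre− and fell to 4.39, 24.1 and 9.45 CPM in Tet tcKO (log2FC −2.95, SE 0.37, limma adjusted p = 2.4e-05), although its exons overlap Arhgdib on the other strand. The number of rod genes called lower was 11 without Tet tcKO replicate 3, and the cone counts were the same under each library left out.

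Photoreceptor transcription factors divided. Of 18 tested, 3 were called lower and 3 higher, and 12, among them Crx, Otx2 and Neurod1, passed the test in neither direction. Esrrb, a nuclear receptor of rods, was at 404, 343 and 360.1 CPM in Cre− and at 15, 93.6 and 35.7 CPM in Tet tcKO, the largest fall of the list (log2FC −3.30, SE 0.40, limma adjusted p = 1.6e-05). The rod factors Nrl and Nr2e3 fell by 2.37 and 2.21 on the log2 scale. Rxrg, a receptor of cones, rose by a log2FC of 2.41. Prdm1, a repressor that acts while photoreceptors and bipolar cells separate, was at 10.2, 18.8 and 12.8 CPM in Cre− and at 56.1, 53.5 and 39.3 CPM in Tet tcKO (log2FC 1.82, limma adjusted p = 0.00034). Sall3, a zinc finger factor of cones and some bipolar cells, was at 7.53 ± 1.26 CPM in Cre− against 26.7 ± 12.7 CPM in Tet tcKO (mean ± SD, n = 3 a group), with a log2FC of 1.67 (limma adjusted p = 0.0016). Without Tet tcKO replicate 1 or Cre− replicate 3 it was not called (log2FC 1.32 and 1.63).

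The outer segment of a photoreceptor is a modified cilium packed with discs. Of 24 genes of its structure tested, 6 were called lower and 1 higher, and the median log2FC was −0.18. The disc rim genes Prph2 and Rom1 were both lower, and Prph2 was at 2301, 2234 and 1799 CPM in Cre− and at 71.7, 521 and 212 CPM in Tet tcKO (log2FC −3.39, SE 0.44, limma adjusted p = 4.4e-05). Rom1, a partner of Prph2, was at 704, 668 and 626 CPM in Cre− and at 158, 231 and 144 CPM in Tet tcKO (log2FC −1.93, limma adjusted p = 1.8e-05). All Tet tcKO libraries lay below all Cre− libraries for both. Fscn2, which bundles actin, Impg1, of the matrix around photoreceptors, and Prom1, of the disc edge, fell by 2.11, 2.01 and 1.26 on the log2 scale. Prom1 was not called without Cre− replicate 2 or 3 or Tet tcKO replicate 1 or 3 (log2FC −1.22, −1.31, −1.29 and −1.05). The member called higher was Pcdh15, a cadherin of the calyceal processes, at 270.1, 475 and 383 CPM in Cre− and at 1079, 1216 and 864 CPM in Tet tcKO (log2FC 1.51, limma adjusted p = 0.0025). With Tet tcKO replicate 1 or 3 or Cre− replicate 3 left out in turn, 0 members were called higher and 4 lower. Pcdh15 then had log2FC of 1.48, 1.64 and 1.54.

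Among 18 genes of the photoreceptor ribbon synapse, 3 were called lower and 1 higher (median log2FC −0.48). Cplx4, a complexin of ribbon synapses, was at 580.3, 598 and 676 CPM in Cre− and at 12.4, 181 and 110.2 CPM in Tet tcKO, a fall of 3.28 on the log2 scale (SE 0.57, limma adjusted p = 0.0008). The 3 Tet tcKO libraries differed widely, and Cplx4 was not called by edgeR, DESeq2, under TMM scaling, with CT010467.1 left out, or without Tet tcKO replicate 3 (log2FC −2.59, −2.61, −3.27, −3.11 and −3.68). Cabp4, a regulator of the photoreceptor calcium channel, was at 75.7, 101 and 82.6 CPM in Cre− and at 20.2, 36.2 and 23.4 CPM in Tet tcKO (log2FC −1.71, SE 0.23, limma adjusted p = 6.9e-05). It overlaps Gpr152 on the other strand. Rims2, a scaffold of the release site, had a log2FC of −1.16 (limma adjusted p = 0.0066), and the call was lost without any of 5 libraries, Cre− replicates 2 and 3, Tet tcKO replicates 1 and 3 and tHet replicate 1 (log2FC −1.16 to −1.05) and with CT010467.1 left out (log2FC −1.0). Elfn2, an adhesion protein of cone synapses, was at 43.1 ± 3.59 CPM in Cre− against 101 ± 35.2 CPM in Tet tcKO (mean ± SD, n = 3 a group), a log2FC of 1.17 (limma adjusted p = 0.0031). Without Tet tcKO replicate 1, Cre− replicate 2 or Cre− replicate 3, Elfn2 was not called (log2FC 0.92, 1.10 and 1.20). In the list, 1 gene was called lower without Tet tcKO replicate 3, and 2 were without Tet tcKO replicate 1, Cre− replicate 2, Cre− replicate 3 or tHet replicate 1.

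Of 12 retinoid cycle genes, 4 were called lower and 0 higher (median log2FC −0.69). Rdh12 and Rdh8, the retinol dehydrogenases of photoreceptors, had log2FC of −1.92 and −1.76 (limma adjusted p = 0.00027 and 0.00013), and Rdh12 was not called without Tet tcKO replicate 3 (log2FC −1.94). Rlbp1, the retinal-binding protein of Müller glia and pigment epithelium, was at 217, 159 and 176 CPM in Cre− and at 46.1, 86.5 and 49.5 CPM in Tet tcKO (log2FC −1.64, SE 0.24, limma adjusted p = 0.00013). Rgr, an opsin of the same cells, was at 63.6, 18.1 and 34.4 CPM in Cre− and at 11.9, 12.5 and 8.43 CPM in Tet tcKO, so that Cre− varied most. Its log2FC of −1.62 was not called without Cre− replicate 1 or 3 or Tet tcKO replicate 1 or 3 (log2FC −1.17, −1.61, −1.69 and −1.45), nor under TMM scaling or with CT010467.1 left out (log2FC −1.61 and −1.46). The list for pigment epithelium, a tissue that can come along in dissection, varied among the same Cre− libraries. All of its 10 members were above 0 in each library, and its summed level was 178, 45.6 and 115 CPM in Cre− and 57.6, 54.8 and 42.8 CPM in Tet tcKO, with tHet at 157 to 237 CPM. Cre− replicates 1 and 3 thus held more of it than the Tet tcKO libraries, and Cre− replicate 2 did not. Of its 9 tested members, Rpe65, the isomerase of the cycle, and Lrat, which esterifies retinol, were called lower (log2FC −1.87 and −1.60), and neither was called without Tet tcKO replicate 1 or without replicate 3 (log2FC −1.86 and −1.74 for Rpe65, −1.70 and −1.37 for Lrat). Lrat was also not called without Cre− replicate 1 or 3 (log2FC −1.15 and −1.63), by edgeR, or with CT010467.1 left out (log2FC −1.94 and −1.46), and under TMM scaling neither Rpe65 nor Lrat was (log2FC −1.86 and −1.60). The part of pigment epithelium in these retinoid cycle values was not tested.

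Bipolar cells carry the signals of photoreceptors to the inner retina. The promoter stretches shown here belong to a pair of bipolar cell genes that moved in opposite directions and to the pair of listed genes with the largest rises. Each is the stretch of 170 bases that ends 80 bases before the RefSeq start of the transcript (GRCm38.p6, 5′ to 3′ on the strand of the gene), with CG, the usual site of DNA methylation, in capitals. Trpm1, chr7:64153585-64153754, plus strand, called lower, and Cabp5, chr7:13397905-13398074, plus strand, called higher, both held 0 CG, as did 13.7% of all 32851 such stretches in the RefSeq table.
Trpm1: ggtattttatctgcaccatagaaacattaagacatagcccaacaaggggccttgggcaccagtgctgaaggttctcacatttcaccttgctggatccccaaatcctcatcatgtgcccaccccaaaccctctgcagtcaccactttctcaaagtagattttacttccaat
Cabp5: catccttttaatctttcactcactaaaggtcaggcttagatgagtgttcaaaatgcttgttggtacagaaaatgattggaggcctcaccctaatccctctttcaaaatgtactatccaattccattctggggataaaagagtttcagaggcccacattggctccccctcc
Fabp7, chr10:57784673-57784842, plus strand, held 3 CG, the median of all stretches, and Robo3, chr9:37433256-37433425, minus strand, held 9, a number that 76.6% of stretches did not exceed.
Fabp7: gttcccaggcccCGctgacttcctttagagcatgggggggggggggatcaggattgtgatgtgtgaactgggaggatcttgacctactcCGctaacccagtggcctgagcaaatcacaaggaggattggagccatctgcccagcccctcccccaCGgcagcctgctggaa
Robo3: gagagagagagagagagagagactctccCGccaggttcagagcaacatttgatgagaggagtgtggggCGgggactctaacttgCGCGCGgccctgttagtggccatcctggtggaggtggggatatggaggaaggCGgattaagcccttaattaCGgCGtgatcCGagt

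Of 11 genes of the mGluR6 cascade, through which ON bipolar cells respond to glutamate from photoreceptors, 3 were called lower and 0 higher (median log2FC −0.60). Trpm1, the channel at the end of the cascade, was at 541, 620.3 and 679 CPM in Cre− and at 39.1, 378 and 169 CPM in Tet tcKO. All Tet tcKO libraries were lower than all Cre− libraries, and replicate 1 was the lowest. The log2FC was −2.16 (SE 0.49, limma adjusted p = 0.0075), and the call was lost under edgeR and DESeq2 (log2FC −1.67 and −1.68), under TMM scaling and with CT010467.1 left out (log2FC −2.15 and −2.0), and without Tet tcKO replicate 1 or 3 or Cre− replicate 3 (log2FC −1.27, −2.32 and −2.09). Nyx, nyctalopin, which holds the channel at the membrane, followed the same order, at 28.1, 31.8 and 30.8 CPM in Cre− and at 1.84, 14.4 and 8.79 CPM in Tet tcKO (log2FC −2.16, SE 0.43, limma adjusted p = 0.0026). It was not called by edgeR or DESeq2 (log2FC −1.85 in both), under TMM scaling or with CT010467.1 left out (log2FC −2.15 and −2.01), or without Tet tcKO replicate 3 (log2FC −2.38). Gnb5, a G protein subunit that speeds the end of the response, varied least, at 265, 223 and 252 CPM in Cre− and at 99.1, 112 and 76.0 CPM in Tet tcKO (log2FC −1.37, SE 0.23, limma adjusted p = 0.00063). Its call held under each alternative, and it was the only member called without Tet tcKO replicate 3 or under TMM scaling. Trpm1 overlaps Gm44722 and Gnb5 overlaps Gm19531 on the other strand.

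In the list of pan-bipolar and rod bipolar genes, 8 of 14 were called lower and 1 higher, with a median log2FC of −1.36. Gabrr1, the rho GABA receptor subunit of bipolar terminals, was at 167, 143 and 167 CPM in Cre− and at 8.85, 61.6 and 31.4 CPM in Tet tcKO (log2FC −2.59, SE 0.41, limma adjusted p = 0.00031). Car8, a protein of the carbonic anhydrase family that is enriched in rod bipolar cells, was at 159.5, 121 and 143 CPM in Cre− and at 11.0, 56.4 and 26.5 CPM in Tet tcKO (log2FC −2.43, SE 0.36, limma adjusted p = 0.00017). Sebox, a homeobox gene, was at 21.1, 18.1 and 20 CPM in Cre− and at 3.15, 7.97 and 3.73 CPM in Tet tcKO (log2FC −1.99, SE 0.30, limma adjusted p = 0.00019). Tet tcKO replicate 2 held the highest level of the 3 for each of these genes. Bhlhe23, a factor needed for rod bipolar maturation, and Strip2 fell by 2.20 and 1.54 on the log2 scale.

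Cabp5, a calcium-binding protein of rod bipolar and some cone bipolar cells, went the other way. It was at 204, 139 and 227 CPM in Cre− and at 819, 687 and 445 CPM in Tet tcKO, with no overlap (log2FC 1.76, SE 0.25, limma adjusted p = 0.00012). Its call held in each alternative. The number of members called lower fell from 8 to 1 without Tet tcKO replicate 3 and to 4 without Tet tcKO replicate 1, while the median stayed between −1.64 and −1.20 with each library left out in turn. In fits without Tet tcKO replicate 3, Gabrr1, Car8, Bhlhe23 and Strip2 lost the call at log2FC of −2.72, −2.46, −2.10 and −1.45. Bhlhe23 also lost it without Tet tcKO replicate 1 and by edgeR (log2FC −1.72 and −2.27).

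Cone bipolar cells form several ON and OFF types. Of 16 genes tested, 2 were called lower and 0 higher, and the median log2FC was −0.16. Irx6, a homeobox factor of OFF cone bipolar cells, was at 37.1, 26.2 and 39.9 CPM in Cre− and at 12.2, 17.5 and 10.1 CPM in Tet tcKO (log2FC −1.36, SE 0.26, limma adjusted p = 0.002). Syt2, a synaptotagmin, had a log2FC of −1.33 (SE 0.26, limma adjusted p = 0.0026). Zfhx4, the most abundant member that was not called, was at 140.0, 159 and 160.5 CPM in Cre− and at 182, 226 and 121 CPM in Tet tcKO, with overlap (log2FC 0.16, SE 0.24, limma adjusted p = 0.88). After removal of Tet tcKO replicate 1, Tet tcKO replicate 3 or Cre− replicate 3, no cone bipolar gene was called. Irx6 then had log2FC of −1.32, −1.19 and −1.24, and Syt2 of −1.15, −1.19 and −1.34. The difference between the rod bipolar and cone bipolar lists was not tested.

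**Figure D2:**
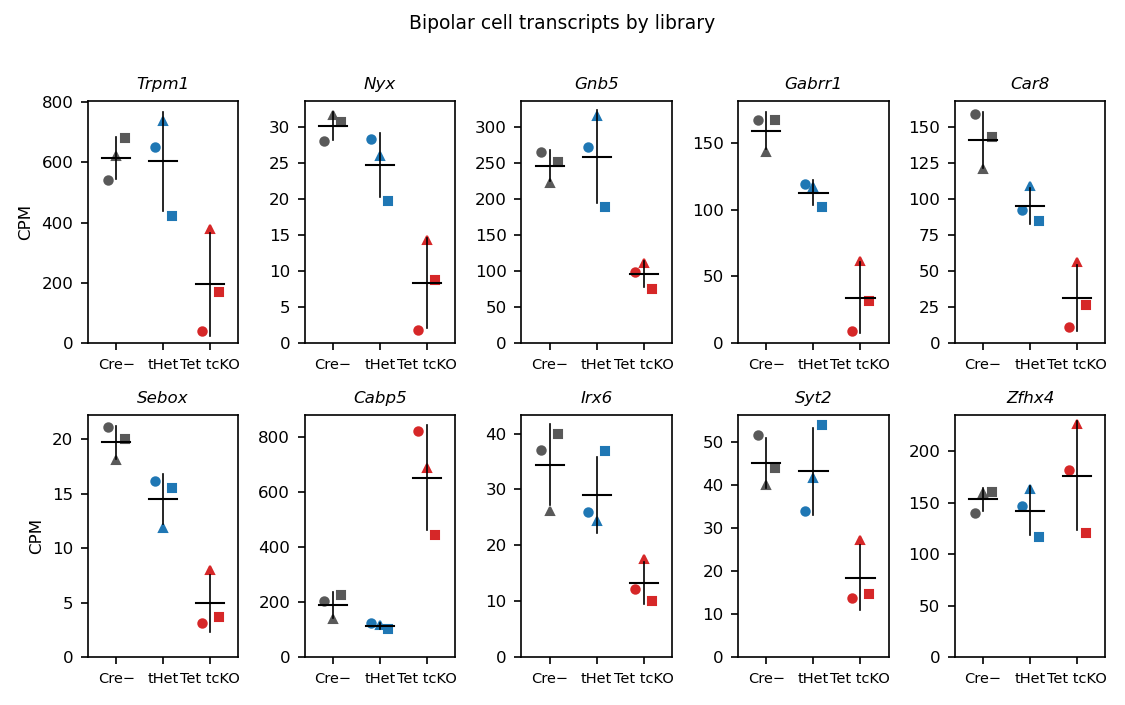
CPM of bipolar cell genes (y axis, from 0, a scale for each gene) in Cre−, tHet and Tet tcKO libraries, with circles, triangles and squares for replicates 1, 2 and 3, horizontal bars for means and vertical bars for the SD. Trpm1, Nyx, Gabrr1 and Car8 are lowest in Tet tcKO replicate 1, and Cabp5 lies between 445 and 819 CPM in Tet tcKO, above the other 6 libraries.

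Horizontal cells carry signals sideways between photoreceptor terminals. Of 8 genes, 1 was called lower and 0 higher (median log2FC −0.44). It was Gja10, the connexin of horizontal cell gap junctions, at 3.89, 2.61 and 3.24 CPM in Cre− and at 0.119, 0.922 and 0.482 CPM in Tet tcKO (log2FC −1.96, SE 0.37, limma adjusted p = 0.0019). At these levels it rests on few reads, and it was not called without Tet tcKO replicate 1, Tet tcKO replicate 3 or Cre− replicate 3 (log2FC −1.65, −1.98 and −1.95). Calb1, the calcium-binding protein used as a marker of these cells, was at 134, 65.0 and 88.0 CPM in Cre− and at 88.5, 63.5 and 36.8 CPM in Tet tcKO, within the spread of the libraries (log2FC −0.62, SE 0.29, limma adjusted p = 0.28). Sept4 was at 165 ± 19.5 CPM in Cre− against 149 ± 26.5 CPM in Tet tcKO (mean ± SD, n = 3 a group, log2FC −0.16, limma adjusted p = 0.87).

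Amacrine cells, the interneurons of the inner retina, had few called genes. Of 8 genes of GABAergic and general amacrine cells, none was called by limma (median log2FC 0.09, and 0.25 with CT010467.1 left out). Unadjusted p-values over all genes were under 0.05 for 3427 of the 21330. By edgeR, by DESeq2 and with the replicate block, 1 of the 8 was called lower. Limma also called 1 lower with only the 6 libraries or with a filter of 1 CPM. It did so too without Tet tcKO replicate 2, tHet replicate 2 or tHet replicate 3. Pax6, a factor of amacrine cells and progenitors, was at 462, 457 and 548 CPM in Cre− and at 821, 763 and 540.3 CPM in Tet tcKO (log2FC 0.52, SE 0.24, limma adjusted p = 0.29). Tfap2b, an amacrine factor, had a log2FC of 0.29 (limma adjusted p = 0.73). For both genes Tet tcKO replicate 3 was the lowest of its genotype, and each overlapped Cre−. CT010467.1 took 28.7% of the reads of this library, which lowers its CPM, and these values are not rescaled for it. The overlap of Pax6 came from this library only, so it cannot be told apart from the scaling. Of 6 starburst amacrine genes, 0 were called by limma, 0 by edgeR and 0 by DESeq2 (median log2FC 0.03). Chat, which makes acetylcholine, was at 12 ± 3.12 CPM in Cre− against 8.83 ± 4.22 CPM in Tet tcKO, and Slc5a7, the choline transporter, at 25.6 ± 5.37 and 47.7 ± 27.0 CPM (mean ± SD, n = 3 a group). Their log2FC of −0.50 and 0.75 were not called (limma adjusted p = 0.55 and 0.24). With SE from 0.24 to 0.33 for these genes, changes of this size were not detectable, which does not show that the levels were equal.

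The AII amacrine cell passes rod signals from rod bipolar cells to the cone pathway. Among 11 glycinergic, AII and other amacrine genes, 2 were called lower and 0 higher (median log2FC −0.09, and 0.05 with CT010467.1 left out, when none was called). Slc6a9, the glycine transporter, was at 47.7, 57.2 and 66.0 CPM in Cre− and at 16.4, 37.0 and 21.1 CPM in Tet tcKO (log2FC −1.25, SE 0.26, limma adjusted p = 0.0036). Gjd2, the connexin of AII gap junctions and of other retinal neurons, was at 78.5, 65.7 and 75.5 CPM in Cre− and at 34.9, 44.4 and 28.3 CPM in Tet tcKO (log2FC −1.04, SE 0.21, limma adjusted p = 0.0037). Both share exon sequence with genes on the other strand. Without Tet tcKO replicate 1, Tet tcKO replicate 3 or Cre− replicate 3 neither was called (log2FC −1.0, −1.18 and −1.14 for Slc6a9, −1.03, −0.88 and −1.02 for Gjd2), nor was Gjd2 without Cre− replicate 1 (log2FC −0.99).

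Among 8 amacrine neuropeptides, 1 was called in each direction. Penk, proenkephalin, was at 21.8, 17.8 and 24.4 CPM in Cre− and at 102, 94.0 and 79.5 CPM in Tet tcKO (log2FC 2.08, SE 0.34, limma adjusted p = 0.00039). The tHet libraries, at 47.5, 20.4 and 84.5 CPM, spanned the gap. Vip, vasoactive intestinal peptide, was at 10.5, 8.91 and 7.49 CPM in Cre− and at 0.356, 4.74 and 1.57 CPM in Tet tcKO (log2FC −2.16, SE 0.45, limma adjusted p = 0.004). Npy was at 9.51 ± 0.247 CPM in Cre− against 8.0 ± 2.25 CPM in Tet tcKO (mean ± SD, n = 3 a group, log2FC −0.27, limma adjusted p = 0.84). With Tet tcKO replicate 3 left out, neither Penk nor Vip was called (log2FC 2.18 and −2.15), and Vip was not called without Tet tcKO replicate 1 or Cre− replicate 3 either (log2FC −1.51 and −2.28). The call of Vip was also lost by edgeR, under TMM scaling and with CT010467.1 left out (log2FC −2.08, −2.15 and −2.03).

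Of 15 ganglion cell genes, 0 were called by limma and 0 by edgeR (median log2FC −0.29). DESeq2, the fit with the replicate block and limma on only the 6 libraries each called 1 higher and 2 lower. So did limma without tHet replicate 3. Limma called 2 lower without Tet tcKO replicate 2 or tHet replicate 2. It called 1 higher without Cre− replicate 1, and 1 lower without Cre− replicate 2. The count of 0 thus depended on the fit and on single libraries, those of tHet included. The neurofilament genes Nefh, Nefl and Nefm, which build the axon skeleton, had the highest levels. Nefh was at 282, 225 and 259 CPM in Cre− and at 113, 156 and 99.7 CPM in Tet tcKO, all lower, with a log2FC of −1.07 (SE 0.27, limma adjusted p = 0.017). It was called lower by DESeq2 (log2FC −1.09), with the replicate block and with only the 6 libraries (log2FC −1.07 in both). The same held without Tet tcKO replicate 2 (log2FC −1.26) or without tHet replicate 2 or 3. Nefl and Nefm had log2FC of −0.75 and −0.60 (limma adjusted p = 0.21 and 0.28), and their exons overlap each other on opposite strands. The median of the list was 0.10 without Tet tcKO replicate 3.

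**Figure D3:**
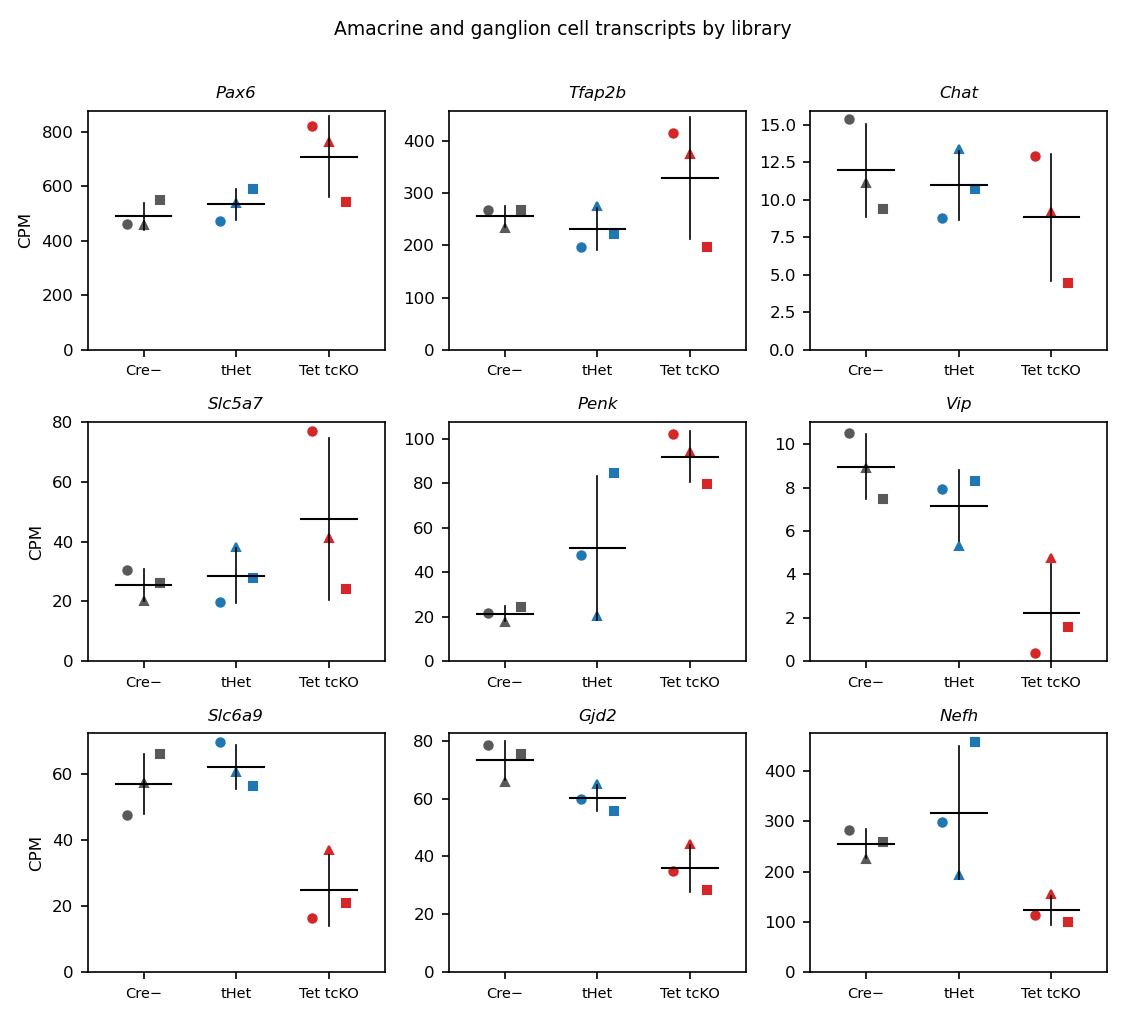
CPM of amacrine and ganglion cell genes (y axis, from 0, a scale for each gene) in Cre−, tHet and Tet tcKO libraries, with circles, triangles and squares for replicates 1, 2 and 3, horizontal bars for means and vertical bars for the SD. Pax6, Tfap2b, Chat and Slc5a7 overlap between Cre− and Tet tcKO, while Penk, Vip, Slc6a9, Gjd2 and Nefh do not. The CPM of Tet tcKO replicate 3 is lowered by CT010467.1 and is not rescaled.

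Müller glia span the retina, recycle transmitter and hold its structure. Of 18 genes, 4 were called lower and 1 higher. The median log2FC was −0.07 and turned to 0.09 with CT010467.1 left out. Glul, glutamine synthetase, was at 1159, 840.3 and 1029.6 CPM in Cre− and at 349.9, 514 and 301 CPM in Tet tcKO (log2FC −1.40, SE 0.26, limma adjusted p = 0.0015). Abca8a, a transporter, was at 169, 145 and 151 CPM in Cre− and at 37.1, 92.1 and 38.0 CPM in Tet tcKO (log2FC −1.60, SE 0.27, limma adjusted p = 0.00066). With Rlbp1, described above, and Crb1, a polarity protein of the outer limiting membrane that photoreceptors express too (log2FC −1.18, limma adjusted p = 0.0037), they form the 4 that fell. Apoe, apolipoprotein E, was at 209, 204 and 236 CPM in Cre− and at 486, 428 and 549 CPM in Tet tcKO, with no overlap (log2FC 1.17, SE 0.25, limma adjusted p = 0.0054). Its call was lost under edgeR and TMM scaling (log2FC 1.23 and 1.18), without any of the 3 Cre− libraries, and without Tet tcKO replicate 1 or 3 (log2FC 1.08 to 1.23). Without Tet tcKO replicate 1 the list held 1 called member, Rlbp1, and Glul, Abca8a and Crb1 had log2FC of −1.35, −1.38 and −1.08. When Tet tcKO replicate 3 was omitted, Abca8a and Crb1 were not called (log2FC −1.39 and −1.04), and without Cre− replicate 3, Glul and Crb1 were not (log2FC −1.38 and −1.27), nor was Crb1 without Cre− replicate 2 (log2FC −1.11).

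Of 14 genes of glial reactivity and stress tested, 1 was called higher and 0 lower (median log2FC 0.31). With the replicate block 1 was called higher and 2 lower, and 1 was called lower by DESeq2, under TMM scaling, with CT010467.1 left out, or without Cre− replicate 2. Gfap, the filament protein that reactive Müller glia make, was at 25.7, 22.5 and 40.8 CPM in Cre− and at 113, 45.3 and 34.9 CPM in Tet tcKO, with tHet at 42.2, 46.6 and 179.9 CPM. The ranges overlapped only through Tet tcKO replicate 3, whose CPM is lowered by CT010467.1 and is not rescaled. Tet tcKO replicate 1 stood highest of its genotype, and the log2FC of 0.96 had an SE of 0.44 (limma adjusted p = 0.27). Socs3, a feedback inhibitor of cytokine signals, was at 1.53, 1.78 and 2.63 CPM in Cre− and at 11.0, 9.03 and 5.90 CPM in Tet tcKO (log2FC 1.87, SE 0.36, limma adjusted p = 0.002). It was not called without Tet tcKO replicate 1 (log2FC 1.68). Stat3, which induces Socs3, had a log2FC of 0.42 (limma adjusted p = 0.41).

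Genes of developing retina were described in several lists, without a test of any list as a whole. Of 19 retinal progenitor genes, 3 were called higher and 0 lower, and the median log2FC was 0.66. All Tet tcKO libraries lay above all Cre− libraries for 11 of the 19, against 10.0% of all tested genes. Fabp7, a brain-type fatty acid binding protein of radial glia and progenitors, was at 0.589, 0.509 and 0.810 CPM in Cre−, at 1.94, 2.39 and 1.28 CPM in tHet, and at 173, 99.2 and 119.5 CPM in Tet tcKO. Its log2FC of 6.82 was the largest of the listed genes. Six6, an eye field homeobox factor, was at 134, 96.8 and 137 CPM in Cre− and at 418, 344 and 257 CPM in Tet tcKO (log2FC 1.46, SE 0.25, limma adjusted p = 0.00066). Notch1, the receptor that keeps progenitors from differentiating, was at 18.0, 18.0 and 18.9 CPM in Cre− and at 47.9, 47.6 and 39.0 CPM in Tet tcKO (log2FC 1.26, SE 0.22, limma adjusted p = 0.00068). All 3 calls held in each alternative tried.

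Neurogenic precursor genes, which mark cells leaving the cycle, had 2 of 13 called higher and 0 lower (median log2FC 0.27). Dll1, a Notch ligand, was at 11.1, 11.5 and 11.0 CPM in Cre− and at 45.3, 36.5 and 27.4 CPM in Tet tcKO (log2FC 1.63, SE 0.24, limma adjusted p = 0.00016). Its call held in each alternative tried. Atoh7, the factor needed for ganglion cell competence, stayed low, at 0.118, 0.318 and 0.473 CPM in Cre− and at 2.02, 1.71 and 1.32 CPM in Tet tcKO. Its log2FC of 1.46 (limma adjusted p = 0.0058) was not called without any of the 6 libraries compared (1.28 to 1.61) or by edgeR (2.48). Neurod4, the most abundant member, was at 342 ± 50.5 CPM in Cre− against 395 ± 61.6 CPM in Tet tcKO (mean ± SD, n = 3 a group, log2FC 0.21, limma adjusted p = 0.80).

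Of 17 genes of immature neurons, 4 were called higher and 0 lower (median log2FC 0.40), and against tHet 1 was called higher. Sox11 and Sox4, related factors of newborn neurons, had log2FC of 1.61 and 1.34 (limma adjusted p = 0.0013 and 0.0022). Sox11 was at 6.77, 7.13 and 5.74 CPM in Cre− and at 30.1, 19.6 and 15.4 CPM in Tet tcKO, and Sox4 was at 78.8, 57.3 and 90.7 CPM in Cre− and at 279, 158 and 152 CPM in Tet tcKO. Tubb2b, a neuronal tubulin, and Marcksl1, which binds actin, had log2FC of 1.31 and 1.08 (limma adjusted p = 0.0067 and 0.0092). Tet tcKO replicate 1 was the highest for each of the 4 genes, and without it none was called, at log2FC of 1.35, 1.05, 0.91 and 0.82. By edgeR and under TMM scaling 2 of the 4 were called, since Tubb2b (log2FC 1.40 and 1.32) and Marcksl1 (log2FC 1.11 and 1.09) were not. In fits without Tet tcKO replicate 3, Sox11 was the only member called, and Sox4, Tubb2b and Marcksl1 had log2FC of 1.49, 1.52 and 1.23. Sox4, Tubb2b and Marcksl1 were also not called without Cre− replicate 2 (log2FC 1.15, 1.12 and 0.93), and Sox11, Tubb2b and Marcksl1 without Cre− replicate 3 (log2FC 1.52, 1.39 and 1.12).

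Of 13 cell cycle genes, 2 were called higher and 0 lower (median log2FC 0.31). Mki67, which coats mitotic chromosomes, was at 0.353, 0.382 and 0.405 CPM in Cre−, at 1.15, 1.35 and 2.42 CPM in tHet and at 7.84, 4.35 and 4.46 CPM in Tet tcKO (log2FC 2.73, SE 0.34, limma adjusted p = 2.7e-05). Top2a, a topoisomerase of dividing cells, was at 0.278 ± 0.177 CPM in Cre− against 2.43 ± 0.741 CPM in Tet tcKO (mean ± SD, n = 3 a group, log2FC 1.90, limma adjusted p = 0.00079). Both stayed under 10 CPM in every library. Pcna, the sliding clamp of replication and repair, was at 29.6, 27.3 and 32.1 CPM in Cre− and at 22.9, 21.7 and 17.2 CPM in Tet tcKO, on the other side of Cre− (log2FC −0.52, limma adjusted p = 0.22). The calls of Mki67 and Top2a held with each library left out, but in Tet tcKO against tHet 0 of the 13 genes were called.

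Axon guidance genes had 2 of 22 called higher and 0 lower (median log2FC 0.29). Robo3, a divergent member of the Robo receptors that lets commissural axons cross the midline, was at 1.24, 1.40 and 2.7 CPM in Cre−, at 1.51, 2.18 and 2.46 CPM in tHet and at 113, 136 and 104 CPM in Tet tcKO, a log2FC of 5.74. The 3 Tet tcKO libraries lay close together. Slit3, a ligand of Robo receptors, was at 0.706, 1.02 and 0.473 CPM in Cre− and at 7.48, 3.36 and 1.87 CPM in Tet tcKO (log2FC 1.79, SE 0.39, limma adjusted p = 0.0058). It was not called without Tet tcKO replicate 1 or 2 or Cre− replicate 3 (log2FC 1.32, 1.84 and 1.63). Robo2, the most abundant member, was at 230.3 ± 22.3 CPM in Cre− against 268 ± 85.4 CPM in Tet tcKO (mean ± SD, n = 3 a group, log2FC 0.16, limma adjusted p = 0.89).

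Nicotinic acetylcholine receptors are ion channels built from several subunits. Of 10 tested, 3 were called higher, and these were Chrna5, Chrna3 and Chrnb4, which are neighbours on chromosome 9 between 54980880 and 55048779 (GRCm38). Chrnb4 was at 1.88, 1.78 and 1.22 CPM in Cre− and at 101, 65.1 and 48.6 CPM in Tet tcKO (log2FC 5.03, SE 0.31, limma adjusted p = 2.3e-09). Chrna3 was at 11.2, 9.80 and 7.16 CPM in Cre− and at 39.8, 33.9 and 25.4 CPM in Tet tcKO (log2FC 1.76, SE 0.27, limma adjusted p = 0.00025). Chrna5 was at 5.0, 2.86 and 4.12 CPM in Cre− and at 16.6, 15.1 and 11.4 CPM in Tet tcKO (log2FC 1.74, SE 0.30, limma adjusted p = 0.0008). All Tet tcKO libraries lay above all Cre− and tHet libraries for the 3 genes. Chrna2, on chromosome 14, was the member called lower, at 6.49 ± 0.929 CPM in Cre− against 1.92 ± 1.09 CPM in Tet tcKO (mean ± SD, n = 3 a group, log2FC −1.63, limma adjusted p = 0.0053). After removal of Tet tcKO replicate 1, Chrna5 was not called (log2FC 1.63), and without Tet tcKO replicate 1 or 3 or Cre− replicate 3, Chrna2 was not (log2FC −1.67, −1.26 and −1.54).

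**Figure D4:**
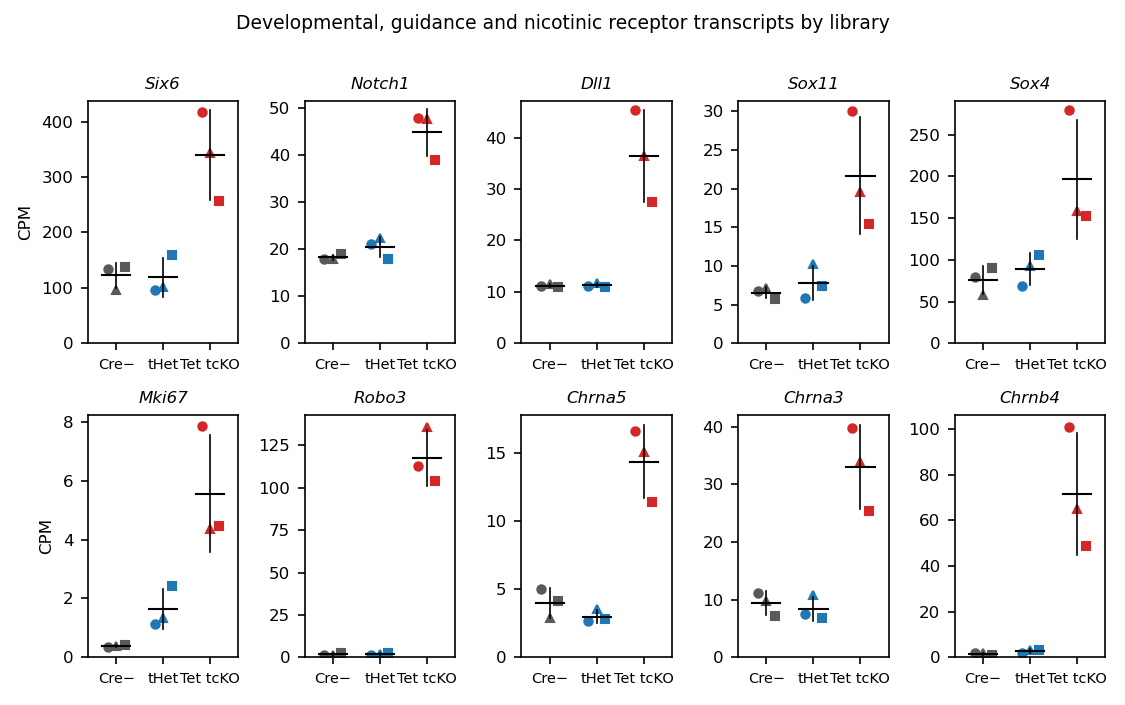
CPM of developmental, guidance and nicotinic receptor genes (y axis, from 0, a scale for each gene) in Cre−, tHet and Tet tcKO libraries, with circles, triangles and squares for replicates 1, 2 and 3, horizontal bars for means and vertical bars for the SD. For each of the 10 genes every Tet tcKO library lies above every Cre− library.

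Microglia are the resident immune cells of the retina. Of 16 microglia genes, 1 was called higher and 0 lower, with a median log2FC of 0.49. The log2FC was above 0 for 15 of the 16, where the median of all tested genes was 0.00. For 5, all Tet tcKO libraries lay above all Cre− libraries, against 10.0% of all tested genes. The list medians were 0.97, 0.43 and 0.01 in Tet tcKO replicates 1, 2 and 3, and 0 members were called against tHet. Cx3cr1, the fractalkine receptor, was at 10.3, 6.30 and 7.36 CPM in Cre− and at 29.3, 20.5 and 13.6 CPM in Tet tcKO (log2FC 1.31, SE 0.30, limma adjusted p = 0.0093). The call was lost by edgeR and under TMM scaling (log2FC 1.36 and 1.32), without any of the 3 Tet tcKO libraries (log2FC 1.05, 1.30 and 1.59) and without Cre− replicate 2 or 3 (log2FC 1.17 and 1.27). Csf1r, the receptor that microglia need to survive, and Ctss, a lysosomal protease, had log2FC of 0.59 and 0.49 (limma adjusted p = 0.35 and 0.52). The summed level of the list was 46.6 to 63.7 CPM in Cre− and 61.1 to 123 CPM in Tet tcKO. Of 6 genes of activated microglia, 1 was called lower, Spp1, osteopontin, which some ganglion cells express too. It was at 13.0, 9.03 and 9.92 CPM in Cre− and at 3.50, 5.34 and 2.71 CPM in Tet tcKO (log2FC −1.39, limma adjusted p = 0.0095). The call held without Tet tcKO replicate 2 and was lost without any other of the 6 libraries compared (log2FC −1.49 to −1.19), without tHet replicate 1 (log2FC −1.39) and by edgeR, under TMM scaling or with CT010467.1 left out (log2FC −1.51, −1.38 and −1.25).

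Of 14 interferon and antigen presentation genes, 0 were called by limma, 0 by edgeR and 1, lower, by DESeq2 and with the replicate block (median log2FC 0.15). Limma also called 1 lower with only the 6 libraries, without Tet tcKO replicate 1 or without tHet replicate 3. H2-D1, a class I antigen, was at 20.1 ± 1.62 CPM in Cre− against 34.7 ± 13.4 CPM in Tet tcKO (mean ± SD, n = 3 a group, log2FC 0.71, limma adjusted p = 0.16), and B2m, its partner chain, had a log2FC of −0.22 (limma adjusted p = 0.89). Of 12 p53 targets and apoptosis genes, 0 were called by limma, 0 by edgeR and 0 by DESeq2 (median log2FC 0.01). Mdm2, which degrades p53 and is induced by it, was at 63.8, 74.8 and 71.4 CPM in Cre− and at 58.8, 69.0 and 55.1 CPM in Tet tcKO (log2FC −0.20, SE 0.21, limma adjusted p = 0.79). Ccng1, another target, had a log2FC of −0.58 (limma adjusted p = 0.17).

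Of 14 endothelial genes, 1 was called, and it was lower, while 11 of the 14 had a log2FC above 0 (median log2FC 0.28). Flt1, the VEGF receptor 1, was at 132, 84.8 and 131 CPM in Cre− and at 22.4, 52.8 and 23.3 CPM in Tet tcKO (log2FC −1.89, SE 0.28, limma adjusted p = 0.00016). Without Tet tcKO replicate 3 it was not called (log2FC −1.71). The cell source of the Flt1 transcript was not tested. Kdr, the VEGF receptor 2, was at 126, 162 and 124 CPM in Cre− and at 198, 244 and 164 CPM in Tet tcKO, higher in every library and not called (log2FC 0.55, SE 0.22, limma adjusted p = 0.18). Slc2a1, the glucose transporter GLUT1, was at 90.3 ± 16.3 CPM in Cre− against 97.2 ± 13.3 CPM in Tet tcKO (mean ± SD, n = 3 a group, log2FC 0.11, limma adjusted p = 0.92). Of 7 pericyte and smooth muscle genes, 0 were called by limma, 0 by edgeR and 0 by DESeq2 (median log2FC 0.05), and Pdgfrb, the receptor that recruits pericytes, was at 7.60 ± 0.0558 and 7.18 ± 1.37 CPM. Lens can be carried along in dissection. The lens crystallin list summed to 24.8 to 97.9 CPM in Cre− and to 4.10 to 29.3 CPM in Tet tcKO. The source of these transcripts was not tested. None of the 9 tested was called by limma over all 9 libraries, edgeR or DESeq2. With the replicate block 2 were called lower, and 1 was with only the 6 libraries or without Cre− replicate 1. Cryaa was at 4.53, 15 and 29.9 CPM in Cre− and at 0.178, 7.97 and 8.73 CPM in Tet tcKO (log2FC −1.83, limma adjusted p = 0.27).

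Photoreceptors run a strong aerobic glycolysis. Of 19 glycolysis and lactate transport genes, 6 were called lower and 0 higher, and the median log2FC was −0.82 (−0.66 with CT010467.1 left out). Against tHet, 3 were called lower and 0 higher (median log2FC −0.53). For 15 of the 19, all Tet tcKO libraries lay below all Cre− libraries, against 9.60% of all tested genes. Slc16a3, the lactate exporter MCT4, was at 24.1, 21.9 and 20.5 CPM in Cre− and at 2.85, 9.09 and 4.28 CPM in Tet tcKO (log2FC −2.08, SE 0.31, limma adjusted p = 0.00019). Slc16a1, the transporter MCT1, was at 207, 175 and 204 CPM in Cre− and at 88.2, 91.1 and 69.6 CPM in Tet tcKO (log2FC −1.24, SE 0.20, limma adjusted p = 0.00048). Hk2, the hexokinase of photoreceptors, was at 359.6, 314 and 359.7 CPM in Cre−, at 202, 174 and 164 CPM in tHet and at 145, 140.5 and 93.1 CPM in Tet tcKO (log2FC −1.47, SE 0.22, limma adjusted p = 0.00019). The tHet level was thus below Cre− too, and the log2FC of Tet tcKO against tHet was −0.53 (limma adjusted p = 0.19). Pfkp and Pfkl, subunits of phosphofructokinase, and Hk1, the other hexokinase, had log2FC of −1.48, −1.12 and −1.07. Pfkp, Pfkl and Hk1 were not called without Tet tcKO replicate 3 (log2FC −1.39, −0.94 and −0.85), Tet tcKO replicate 1 (log2FC −1.25, −1.10 and −1.16) or Cre− replicate 3 (log2FC −1.44, −1.16 and −1.09), nor were Pfkl and Hk1 without Cre− replicate 1 (log2FC −1.05 and −1.03), or Hk1 without Cre− replicate 2 or tHet replicate 1 (log2FC −1.09 and −1.07). With CT010467.1 left out, Pfkl and Hk1 were under the fold-change threshold (log2FC −0.95 and −0.91).

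**Figure D5:**
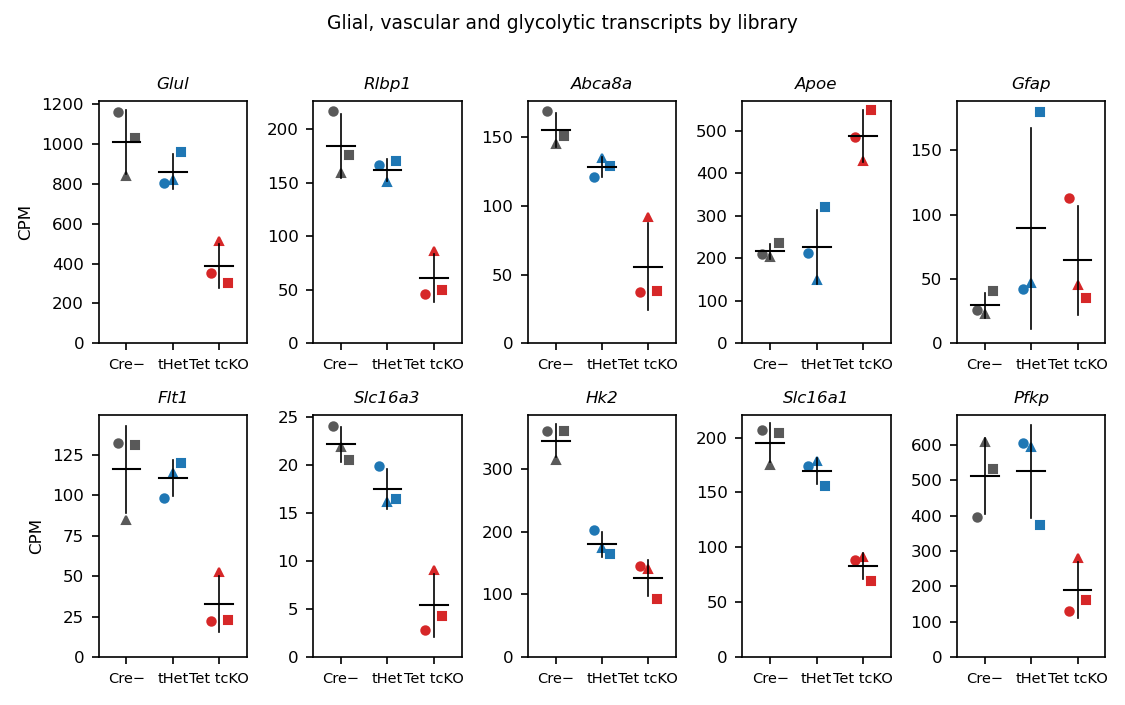
CPM of glial, vascular and glycolytic genes (y axis, from 0, a scale for each gene) in Cre−, tHet and Tet tcKO libraries, with circles, triangles and squares for replicates 1, 2 and 3, horizontal bars for means and vertical bars for the SD. Gfap overlaps between Cre− and Tet tcKO through Tet tcKO replicate 3, whose CPM is lowered by CT010467.1. Apoe lies higher in Tet tcKO, and Hk2 in tHet lies between 164 and 202 CPM, below the Cre− libraries.

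In the list of genes that write, read and remove DNA methylation, the TET genes included, 1 of 19 was called, and it was lower (median log2FC 0.15). Apobec2, of a family of cytidine deaminases, was at 5.24, 4.14 and 3.58 CPM in Cre− and at 0.178, 2.24 and 0.843 CPM in Tet tcKO (log2FC −1.81, SE 0.40, limma adjusted p = 0.0068). Without Tet tcKO replicate 1 or 3, or Cre− replicate 1 or 3, it was not called (log2FC −1.31, −1.81, −1.68 and −1.93). By edgeR, under TMM scaling and with CT010467.1 left out, no gene of the list was called (log2FC of Apobec2 −2.04, −1.81 and −1.71). Dnmt3a, a DNA methyltransferase, was at 505, 517 and 603 CPM in Cre−, at 759, 865 and 711 CPM in tHet and at 918, 811 and 586 CPM in Tet tcKO (log2FC 0.49, limma adjusted p = 0.35).

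Outside the lists, the 15 largest rises came from genes with little transcript in the Cre− retina. Their means in Cre− ran from 0 to 4.99 CPM, and their log2FC from 3.33 to 4.28. Otop3, a proton channel, was at 2.18, 3.05 and 2.63 CPM in Cre− and at 83.4, 57.5 and 44.8 CPM in Tet tcKO (log2FC 4.28, SE 0.28, limma adjusted p = 5.6e-09). Clca1, a secreted protein of mucous epithelia, was at 5.36, 5.09 and 4.52 CPM in Cre− and at 136, 89.0 and 75.2 CPM in Tet tcKO (log2FC 4.15, limma adjusted p = 2.3e-09). Ces2b, a carboxylesterase, had 0 reads in each Cre− library and 8.37, 8.43 and 5.36 CPM in Tet tcKO. The Tet tcKO mean of 7.39 CPM was at least 36.5-fold higher than the level of 3 reads in a Cre− library. The others of the 15 were Akr1b8, Trim43b, Myocd, Rbp4, Egr3, Atp10b, Tcea3, Rspo4, Col4a6, Optc, Gsc2 and Dsg2. Myocd, a coactivator of smooth muscle genes, was at 1.30, 1.02 and 1.08 CPM in Cre− and at 30.3, 30.2 and 15.8 CPM in Tet tcKO, and Egr3, an immediate early factor, at 0.412, 0.445 and 0.338 CPM in Cre− and at 11.7, 12.5 and 11.0 CPM in Tet tcKO. The log2FC of genes with a few reads in Cre−, such as Rbp4 and Trim43b, depends on the pseudocount. All 15 were called in each alternative tried.

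The 15 largest falls outside the lists began from Cre− means between 3.61 and 698 CPM. Reep6, which shapes the endoplasmic reticulum of rods, was at 758, 669 and 667 CPM in Cre− and at 41.9, 213 and 80.7 CPM in Tet tcKO (log2FC −2.95, SE 0.37, limma adjusted p = 2.4e-05). Vtn, vitronectin, a matrix protein, was at 260.3, 247 and 195 CPM in Cre− and at 19.2, 68.0 and 33.8 CPM in Tet tcKO (log2FC −2.7, SE 0.31, limma adjusted p = 9.1e-06). Frmpd1, a scaffold protein, and Gpsm2, which binds G protein subunits, fell by 2.99 and 2.89 on the log2 scale. Aqp1, a water channel, was at 51.2, 49.2 and 44.6 CPM in Cre− and at 0.891, 12.4 and 5.24 CPM in Tet tcKO (log2FC −3.38, SE 0.49, limma adjusted p = 0.00015). The others were Kcnj14, Ccn4, Spc25, Tgm3, Slc22a29, Gramd2, Fam160a1, Zan, Etnppl and Bst1. Spc25, a kinetochore subunit, varied within the controls, at 297, 152 and 338 CPM in Cre− and at 27.7, 171 and 391 CPM in tHet, against 12.8, 46.1 and 24.9 CPM in Tet tcKO. With Tet tcKO replicate 3 left out, Kcnj14, Ccn4, Aqp1, Spc25, Slc22a29, Zan and Etnppl were not called (log2FC −3.60, −3.40, −3.53, −3.32, −2.36, −2.55 and −2.17). When Tet tcKO replicate 1 was omitted, Spc25, Slc22a29, Zan and Etnppl were not (log2FC −2.85, −2.30, −2.09 and −2.68), and without Cre− replicate 3, Slc22a29 and Etnppl were not (log2FC −2.55 and −2.09). With CT010467.1 left out, Spc25, Slc22a29, Zan and Etnppl were not called (log2FC −3.15, −2.60, −2.38 and −2.44), by edgeR Spc25 and Slc22a29 were not (log2FC −3.27 and −3.16), and under TMM scaling Spc25 and Etnppl were not (log2FC −3.30 and −2.56).

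The Tet tcKO libraries differed among themselves in the depth of the fall. The median difference of the rod phototransduction list from Cre− was −2.20, −1.51 and −2.25 in replicates 1, 2 and 3, and that of the rod bipolar list −1.60, −0.76 and −1.69. For the mGluR6 cascade the medians were −1.06, −0.03 and −0.98. Replicate 2 thus had the smallest fall in the 3 lists. For progenitor genes the medians were 0.67, 0.73 and 0.42, and for immature neuron genes 0.72, 0.40 and 0.09. Replicate 3 had the lowest median in both. CT010467.1 took 28.7% of its reads, which lowers the CPM of all its other genes. Its TMM factor was 0.780, against 1.06 and 1.14 in replicates 1 and 2. The library medians were not rescaled for this, so the place of replicate 3 in these orders cannot be told apart from the scaling.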

How the data were processed

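Bulk RNA-seq of P21 retinas was analysed, with genotypes and replicate numbers from the labels. Ribosomal RNA was removed and stranded libraries were made. The submitters' processing notes and the methods name Trim Galore 0.6.7, STAR 2.7.0f on mm10, and HTSeq 0.11.2. The annotation release and strand setting of the counting are not given in the sources used here, so reads of overlapping antisense genes may not be separated. The authors deposited CPM, divided by each library's plain total, beside the results of their own tests (log2 fold changes, p-values, false discovery rates), which were not used. All CPM were whole multiples of a single read (100%, tolerance 0.1 read), which gave the reads per library. Floors of 3 reads cover counting error only. Of the gene IDs, 55141 matched GENCODE M21 without the version, used for positions and overlaps.

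limma 3.58.1 (lmFit, eBayes with trend) in R 4.3.3 was fitted to log2(CPM + 0.5) with 1 mean per genotype over all 9 libraries, and p-values were adjusted over all 21330 genes. A simulation with 200 changed genes was used to test the script. Members and gene lists were chosen with earlier results of these data known. Lists are described by counts and medians, without a test. Named were up to 6 called members a list by adjusted p (where fewer than 3 were called, the most abundant up to 3), and the 15 largest rises and falls elsewhere with at least 1 CPM, no overlap and a regular symbol. Crx, Otx2 and Neurod1 were named after their values were seen, and some genes that meet the rule are not reported here. Same-numbered Cre− and Tet tcKO libraries deviated together (r = 0.560, 0.352 and 0.148 across genes), so the replicate block is given where it moves a count by over 1.5 times. They come from different animals. The labels call the libraries of a genotype biological replicates. Libraries of a genotype differed by more than sampling noise (chi-square per degree of freedom at least 13.3). The smallest exact permutation p for 3 libraries against 3 is 0.1. A comparison of promoter features between called and other genes was void, because 64.3% and 70.7% of genes called higher and lower had a RefSeq window. Alternatives were pseudocounts of 0.1 and 1, no filter, a filter of 1 CPM, TMM scaling, CT010467.1 left out, edgeR 4.0.16 and DESeq2 1.42.0 on recovered reads, the replicate block, 6 libraries only, each library left out, calls without a fold-change minimum, and a looser adjusted p of 0.05. Figures were drawn with matplotlib 3.10.9.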

Additional observations from a re-analysis of the deposited data

How the results depend on the processing

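The number of genes called higher (434) and lower (334) was 255 and 162 without a filter on low values, when 40828 genes entered the adjustment. Leaving out 1 library at a time gave 212 to 526 called higher and 99 to 457 called lower. Genes called lower numbered 222 with CT010467.1 left out, 509 with DESeq2, 514 with the replicate block and 514 at an adjusted p under 0.05. Leaving out CT010467.1 raised the levels of Tet tcKO replicate 3, which had 28.7% of its reads there, and moved the median of all genes to 0.14. TMM scaling, with a factor of 0.780 for that library, called 342 lower. The cause of the changes in these counts was not tested. Of 112 named and called genes, 112 kept the call with the replicate block and with only the 6 libraries, 109 with DESeq2, 97 with edgeR, 97 under TMM scaling, 95 with CT010467.1 left out and 75 without a filter, and no call was reversed. When 1 library was left out, 69 to 112 kept it, with 69 for Tet tcKO replicate 3, 73 for Tet tcKO replicate 1 and 81 for Cre− replicate 3. List medians stayed within the spread of the Tet tcKO libraries under each alternative that kept all libraries compared. That spread includes the CPM of Tet tcKO replicate 3 as lowered by CT010467.1. It is therefore too wide to judge TMM scaling or the fit with CT010467.1 left out. With a library left out, the medians that moved beyond it had ranges of −0.12 to 0.30 (activated microglia), −0.06 to 0.32 (neuropeptides), −0.08 to 0.23 (p53 targets), −1.09 to −0.14 (pigment epithelium) and 0.47 to 0.70 (progenitors). At this depth 1 read is 0.0589 to 0.0675 CPM in the 6 libraries, so genes under 1 CPM rest on few reads.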

Other observations

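Some genes called between Tet tcKO and Cre− retinas were at an intermediate or already altered level in tHet, which shares the transgene and the breeding with Tet tcKO. Optc, opticin, a protein of the vitreous and ciliary body, was at 7.42, 1.21 and 5.74 CPM in Cre−, at 67.1, 42.1 and 98.9 CPM in tHet and at 32.9, 84.9 and 34.5 CPM in Tet tcKO. Its log2FC was 3.40 against Cre− (limma adjusted p = 4.6e-05) and −0.51 against tHet (limma adjusted p = 0.64). Col4a6, a basement membrane collagen, lay higher in Tet tcKO than in both controls, averaging 25.0 ± 4.19 CPM there, 2.0 ± 0.873 CPM in Cre− and 7.24 ± 1.73 CPM in tHet (mean ± SD, n = 3 a group). Its log2FC against the controls was 3.41 and 1.73 (limma adjusted p = 7.6e-07 and 0.0016). Tgm3, a transglutaminase, was at 6.18, 4.01 and 15 CPM in Cre−, at 1.22, 3.01 and 0.995 CPM in tHet and at 0.238, 0.329 and 0.843 CPM in Tet tcKO, with log2FC of −3.05 and −1.15 (limma adjusted p = 0.00012 and 0.14). Bst1, an ectoenzyme that cleaves NAD, averaged 0.206 ± 0.0914 CPM in Tet tcKO, 3.61 ± 1.32 CPM in Cre− and 1.34 ± 0.650 CPM in tHet (mean ± SD, n = 3 a group), with log2FC of −2.49 and −1.34 (limma adjusted p = 0.00012 and 0.028).

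For other genes the means of both controls lay close together. Gsc2, a homeobox factor, was at 0.942, 0.827 and 0.945 CPM in Cre−, at 0.936, 0.831 and 0.947 CPM in tHet and at 19.3, 12.1 and 11.9 CPM in Tet tcKO. Akr1b8, an aldo-keto reductase, averaged 0.402 ± 0.143 CPM in Cre−, with tHet at 0.384 ± 0.259 CPM and Tet tcKO at 14.2 ± 2.13 CPM (mean ± SD, n = 3 a group). Their log2FC were 3.38 and 4.03 against Cre− and 3.38 and 4.09 against tHet, and all 4 were called (limma adjusted p from 1.9e-07 to 1e-06). The Tet tcKO libraries are shared by both comparisons, and the difference between Cre− and tHet was not tested here.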
